A study of Mus musculus with 8 samples.

Results

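A group of 9 genes of the p53 pathway was followed across sorted mouse nephron progenitors: Trp53, which encodes p53, its regulators Mdm2 and Mdm4, and its direct targets Cdkn1a, Ccng1, Bax, Bbc3, Phlda3 and Sesn2. They were taken from the deposited table by symbol. All 9 were among the 24539 genes of the deposited table, and all 9 were among the 13459 genes with enough counts to be tested. The libraries came from kidneys at E18.5, shortly before birth. Cells were sorted by Six2GFPcre, a transgene present in every group that makes a GFP and Cre fusion in Six2-expressing progenitors. There were 4 groups of 2 libraries. In the KO group both Smo alleles were conditional (Smo c/c), and in the Het group 1 was conditional and 1 wild type (Smo c/+). The WT group had 2 wild-type Smo alleles (Smo +/+). The SmoM2 group was Smo +/+ and carried 1 Rosa26 SmoM2 allele, an active form of Smo that Cre switches on. Cre here acts only where the Six2 transgene is made, and the sorted cells are those in which it was active. Smo is the transmembrane protein that relays Hedgehog signals into the cell, and the study varied its dose in the progenitors.

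As background, p53 is a transcription factor that is held low by Mdm2, a ubiquitin ligase that marks it for destruction, and by Mdm4, which covers its activation domain. Damage or stress frees p53 mostly at the protein level, and it then raises genes for cell cycle arrest (Cdkn1a), for cell death (Bax, Bbc3), for metabolic restraint (Phlda3, Sesn2) and for its own control (Mdm2, Ccng1). In the developing kidney, loss of Mdm2 or Mdm4 from the progenitor lineage is known to deplete progenitors through p53. RNA sequencing reads the transcripts only, so p53 protein was not measured here.

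Levels are given as CPM, a gene's counts relative to the library total, after scaling by the trimmed mean of M values, and a change is called when the edgeR adjusted p over all tested genes is under 0.05. Listed counts summed to between 4422305 and 10305398 per library, lowest in both KO libraries, and each member had at least 42 counts in each library. Smo itself went against the Het label. Its CPM was 13.1 and 11.1 (KO), 14.4 and 23.9 (Het), 363 and 374 (WT) and 604 and 628 (SmoM2). Below, each group name therefore carries the word labelled, as in Het-labelled. Both KO-labelled libraries were male and both Het-labelled libraries female by Xist and Y-linked counts, whereas the other groups had 1 of each. The summed level of 9 progenitor markers, Six2 among them, was 4510 to 5879 CPM in the KO- and Het-labelled and 3789 to 4079 CPM in the WT- and SmoM2-labelled libraries. Erythroid markers summed to 17.6 to 61.3 CPM in the KO- and Het-labelled and 4.16 to 9.603 CPM in the other libraries. Within that list Hba-a1 and Hba-a2 had identical counts in each library, as did Hbb-bs and Hbb-b1. The erythroid sum may therefore hold the same reads more than once. Stromal markers summed to 184 to 685 CPM, and 2 of them split along the same line. Foxd1 was at 3.70 to 22.4 CPM in the KO- and Het-labelled and 171 to 384 CPM in the other libraries, and Meis1 at 86.3 to 114 against 10.4 to 17.0 CPM. The part of these cells in the p53 results, several of which follow the same division, was not tested. Summed markers were at most 3.98 CPM for endothelium, 15.5 CPM for immune cells and 73.7 CPM for the collecting duct. The labels do not say whether the libraries of a group came from separate embryos, so p-values measure the spread between these libraries. The numbers in the library names were consecutive within KO-labelled, within Het-labelled and across WT- and SmoM2-labelled libraries, with gaps between. What these numbers stand for is not stated. The labelled genotypes cannot be told apart from anything that follows this numbering.

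The windows around the annotated starts of the 9 genes were searched for p53 response elements, through which p53 acts on its direct targets and which can lie near a start, in an intron or farther away. RefSeq (GRCm38.p6) gave 13 windows for the 9 genes, each from 250 bases before to 50 bases after a start. A pair of adjoining p53 half-sites, 20 bases in all with at most 1 mismatch to the p53 consensus motif on either strand, were found in 2 of the 13 windows and in 29 of all 32851 windows (0.0883%). These were the windows of Cdkn1a (chr17:29090903-29090972, plus strand) and Ccng1 (chr11:40755437-40755506, minus strand), shown here with the 20 bases in capitals.
Cdkn1a: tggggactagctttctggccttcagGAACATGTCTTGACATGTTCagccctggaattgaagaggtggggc
Ccng1: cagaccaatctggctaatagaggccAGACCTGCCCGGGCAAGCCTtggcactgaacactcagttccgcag
A single exact half-site of 10 bases was present in 5 of the 13 windows, those of Cdkn1a and Ccng1 among them, and in 8.36% of all windows. The other 3 were in Trp53 (chr11:69580259-69580318, plus strand), Mdm2 (chr10:117710910-117710969, minus strand) and Bax (chr7:45467065-45467124, minus strand), with the half-site in capitals.
Trp53: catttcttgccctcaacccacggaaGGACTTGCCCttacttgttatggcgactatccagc
Mdm2: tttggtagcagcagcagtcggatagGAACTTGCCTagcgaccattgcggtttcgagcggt
Bax: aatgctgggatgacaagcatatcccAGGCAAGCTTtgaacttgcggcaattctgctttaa
Such a match describes letters and not binding. A second window of Cdkn1a, around another annotated start (chr17:29093519-29093818), held neither a half-site nor a 20-base site. The known p53 elements of Mdm2 lie in its first intron, outside the window searched.

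Trp53 differed little between the groups. Its level was 178 and 201 CPM (KO-labelled), 231 and 202 CPM (Het-labelled), 198 and 213 CPM (WT-labelled) and 199 and 175 CPM (SmoM2-labelled). The groups overlapped in most pairings, and the highest library was 1.32 times the lowest. No pairwise comparison was called, and the test over all 4 groups gave an edgeR adjusted p of 0.431. From the lowest to the highest mean the order was SmoM2-labelled, KO-labelled, WT-labelled and Het-labelled, and no neighbours in that order differed beyond their spread. Against the WT-labelled libraries the 95% interval of the log2 change ran from -0.40 to 0.16 in the KO-labelled, from -0.20 to 0.35 in the Het-labelled and from -0.41 to 0.14 in the SmoM2-labelled libraries. Per length, in the authors' RPKM values, Trp53 had a median of 88.7 over the 8 libraries, against 23.1 for Mdm2 and 12.8 for Mdm4.

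Mdm2, both an inhibitor and a target of p53, was lowest in the Het-labelled libraries. It lay at 83.4 and 81.1 CPM (KO-labelled), 66.8 and 69.7 CPM (Het-labelled), 85.8 and 94.5 CPM (WT-labelled) and 94.2 and 99.0 CPM (SmoM2-labelled). Both Het-labelled libraries were below the other 6. The fall against WT-labelled libraries was called (log2 -0.40 with an SE of 0.12, edgeR adjusted p 0.0302), and so was the difference between Het- and SmoM2-labelled libraries (log2 -0.50, SE 0.12, edgeR adjusted p 0.00833), the latter lost without Het-labelled replicate 1 (adjusted p 0.0581). The Het- against WT-labelled call was lost when GC and length trends were removed (log2 -0.32, edgeR adjusted p 0.0793) and without Het-labelled replicate 1 (adjusted p 0.149), Het-labelled replicate 2 (0.116) or WT-labelled replicate 2 (0.139). KO- and WT-labelled libraries differed by -0.13 (95% interval -0.40 to 0.13), which was not called.

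Mdm4, which blocks p53 without degrading it, was lowest in the KO-labelled libraries. Its values were 96.5 and 82.9 CPM (KO-labelled), 118 and 133 CPM (Het-labelled), 113 and 123 CPM (WT-labelled) and 116 and 100 CPM (SmoM2-labelled). The KO-labelled pair lay below the 6 others. The fall against Het-labelled libraries passed the threshold narrowly (log2 -0.48, SE 0.14, edgeR adjusted p 0.0496), while that against WT-labelled libraries did not (log2 -0.40 with an SE of 0.14, edgeR adjusted p 0.0567). With GC and length trends removed these values became -0.35 (adjusted p 0.215) and 0.04 (adjusted p 0.866), so the second turned in sign. The KO- against Het-labelled call was also lost in 7 of the 8 fits that left out 1 library, with values between -0.60 and -0.38. Mdm4 is long, at 7354 bases in the table, and longer than 92.9% of the tested genes.

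**Figure D1:**
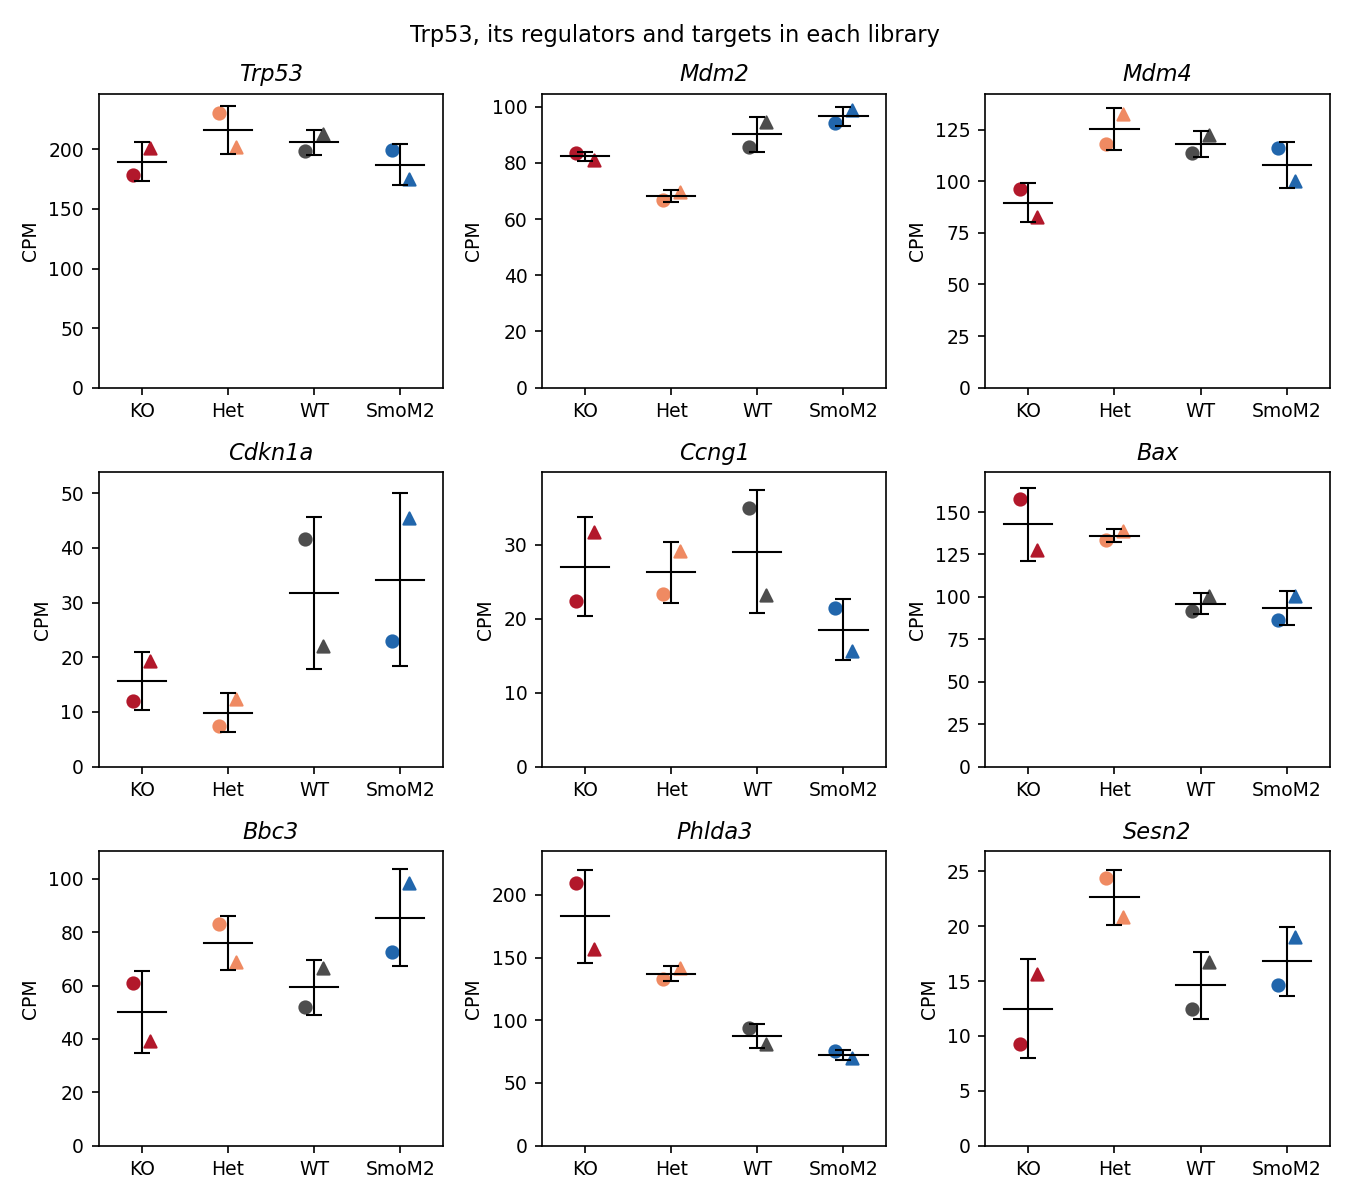
CPM of each of the 9 genes (vertical axes, each starting at 0) in the 4 labelled groups, with replicate 1 as a circle, replicate 2 as a triangle, and the mean with SD in black. Trp53 is level across the groups, Cdkn1a is low in both KO- and both Het-labelled libraries, and Bax and Phlda3 are high in them.

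Cdkn1a encodes p21, the inhibitor of cyclin-dependent kinases through which p53 halts the cell cycle, and it varied most of the 9 genes. Its level was 11.9 and 19.4 CPM (KO-labelled), 7.35 and 12.4 CPM (Het-labelled), 41.6 and 22.0 CPM (WT-labelled) and 23.0 and 45.4 CPM (SmoM2-labelled). The 4 KO- and Het-labelled libraries were all below the 4 others, and the highest library was 6.18 times the lowest. In Het- against WT-labelled libraries it was 3.27-fold lower (log2 -1.71, SE 0.40, edgeR adjusted p 0.0111). Without Het-labelled replicate 1 the adjusted p was 0.0859, and without WT-labelled replicate 1 it was 0.0648 with a change of -1.17. In KO- against WT-labelled libraries the difference was -1.03 (SE 0.40, edgeR adjusted p 0.0837), not called, although DESeq2 gave -1.05 and an adjusted p of 0.0286. The fall in KO- against SmoM2-labelled libraries was called (log2 -1.12, SE 0.40, edgeR adjusted p 0.0498). This call was lost without SmoM2-labelled replicate 2 (log2 -0.60), KO-labelled replicate 1 (log2 -0.82) or KO-labelled replicate 2 (log2 -1.52). It was also lost with sex as a covariate (log2 -1.10, edgeR adjusted p 0.104). Scaling by the library totals that the RPKM values imply ended it as well (log2 -1.02, edgeR adjusted p 0.0727). In Het- against SmoM2-labelled libraries the fall was also called (log2 -1.81, SE 0.40, edgeR adjusted p 0.00598), and it was lost without Het-labelled replicate 1 (log2 -1.502, adjusted p 0.0518). KO- and Het-labelled libraries overlapped, as did WT- and SmoM2-labelled libraries, and neither pair was called (edgeR adjusted p 0.344 and 0.988). An antisense gene overlaps 7.68% of the exon bases of Cdkn1a, and whether the counting used strand is not stated. In these bulk libraries fewer cells with the transcript and less transcript per cell cannot be told apart.

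Ccng1 encodes cyclin G1, a p53 target that brings a phosphatase to Mdm2. It lay at 22.3 and 31.8 CPM (KO-labelled), 23.4 and 29.2 CPM (Het-labelled), 35.0 and 23.2 CPM (WT-labelled) and 21.5 and 15.6 CPM (SmoM2-labelled). The SmoM2-labelled pair was below the other 6, and the rest overlapped. No comparison was called. SmoM2- against WT-labelled libraries differed by -0.65 (SE 0.25, 95% interval -1.20 to -0.11 before adjustment, edgeR adjusted p 0.528). Cdkn1a and Ccng1, the genes with the 20-base sites shown above, thus had different profiles: the KO- and Het-labelled libraries were low for Cdkn1a and in the middle of the range for Ccng1.

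Bax, which opens pores in the outer mitochondrial membrane, was high in the KO- and Het-labelled libraries. The values were 158 and 128 CPM (KO-labelled), 133 and 139 CPM (Het-labelled), 91.9 and 100.3 CPM (WT-labelled) and 86.6 and 101 CPM (SmoM2-labelled). The first 4 libraries were all above the last 4. Against WT-labelled libraries it rose 1.49-fold in KO-labelled (log2 0.57, SE 0.14, edgeR adjusted p 0.0145) and 1.42-fold in Het-labelled libraries (log2 0.50, SE 0.14, edgeR adjusted p 0.0217). With GC and length trends removed the changes were 0.07 (adjusted p 0.659) and 0.12 (adjusted p 0.415), so neither was called. The KO- against WT-labelled call was lost without KO-labelled replicate 1 (log2 0.41) or WT-labelled replicate 1 (log2 0.50). The Het- against WT-labelled call was lost without any 1 of the 4 libraries compared. It was also lost with sex as a covariate (log2 0.42, edgeR adjusted p 0.0509). In KO- against SmoM2-labelled libraries Bax was called higher (log2 0.61, SE 0.14, edgeR adjusted p 0.00728). That call was lost with GC and length trends removed (log2 0.06, edgeR adjusted p 0.677). It was also lost without KO-labelled replicate 1 (log2 0.44) or SmoM2-labelled replicate 1 (log2 0.46). The Het- against SmoM2-labelled call (log2 0.54, edgeR adjusted p 0.0119) was lost without either Het-labelled library or SmoM2-labelled replicate 1. Of the annotated Bax exon bases, 12.2% are shared with Gm45808, another protein-coding gene on the same strand, so reads there cannot be told apart.

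Phlda3, whose protein competes with the kinase Akt for membrane lipids, had the largest called rise of the 9 genes. It lay at 209 and 157 CPM (KO-labelled), 133 and 142 CPM (Het-labelled), 94.1 and 80.9 CPM (WT-labelled) and 75.4 and 69.6 CPM (SmoM2-labelled). The group means ran from high to low in that order, with no overlap between any groups. How many of all tested genes also lacked overlap in each comparison is given below. Against WT-labelled libraries Phlda3 rose 2.09-fold in KO-labelled libraries (log2 1.06, SE 0.15, edgeR adjusted p 0.00104) and 1.57-fold in Het-labelled libraries (log2 0.65, SE 0.15, edgeR adjusted p 0.0105). With GC and length trends removed the KO-labelled rise was 0.68 and still called (edgeR adjusted p 0.00723), while the Het-labelled value was 0.25 (adjusted p 0.194). Leaving out single libraries kept the KO-labelled rise between 0.84 and 1.25, always called. The Het-labelled call was lost without Het-labelled replicate 1 (adjusted p 0.0511), Het-labelled replicate 2 (0.0776) or WT-labelled replicate 2 (0.0731). Neighbouring groups in the order KO, Het, WT and SmoM2 differed by 0.42 (edgeR adjusted p 0.101), 0.65 (called, as above) and 0.27 (adjusted p 0.764).

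Bbc3 encodes PUMA, a BH3-only protein that triggers Bax. Its level was 61.1 and 39.2 CPM (KO-labelled), 83.1 and 68.9 CPM (Het-labelled), 52.1 and 66.7 CPM (WT-labelled) and 72.6 and 98.3 CPM (SmoM2-labelled). Both SmoM2-labelled libraries were above the KO- and the WT-labelled libraries, and the KO-labelled values, high for Bax, were here in the lower part of the range. The called difference was the fall in KO- against SmoM2-labelled libraries (log2 -0.77, SE 0.22, edgeR adjusted p 0.0209). The call was lost without KO-labelled replicate 2 (log2 -0.49) or SmoM2-labelled replicate 2 (log2 -0.58). It was also lost with sex as a covariate (log2 -0.56, edgeR adjusted p 0.0621). With GC and length trends removed this fall was -1.20 (adjusted p 0.00123), and KO- against WT-labelled libraries, at -0.24 and not called before (edgeR adjusted p 0.452), differed by -0.61 (adjusted p 0.0423). In SmoM2- against WT-labelled libraries Bbc3 differed by 0.53 (95% interval 0.06 to 0.99 before adjustment, edgeR adjusted p 0.571).

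Sesn2, a leucine sensor that restrains the growth kinase complex mTORC1, was the gene with the lowest level per length, at a median of 5.04 RPKM against 5.44 for Ccng1. It lay at 9.29 and 15.7 CPM (KO-labelled), 24.4 and 20.9 CPM (Het-labelled), 12.5 and 16.8 CPM (WT-labelled) and 14.6 and 19.1 CPM (SmoM2-labelled). The Het-labelled pair was above the other 6, but no comparison was called. The largest differences were -0.86 in KO- against Het-labelled (SE 0.28, edgeR adjusted p 0.0702) and 0.64 in Het- against WT-labelled libraries (SE 0.26, edgeR adjusted p 0.0888).

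The calls among the 9 members are read here against those among all tested genes. In KO- against WT-labelled libraries 2 of 9 were called (Bax and Phlda3, both higher), where 23% of all tested genes were called, 11.6% higher and 11.4% lower. In Het- against WT-labelled libraries 4 of 9 were called, Bax and Phlda3 higher and Mdm2 and Cdkn1a lower, against 25.3% of all genes (13.1% higher, 12.2% lower). Between SmoM2- and WT-labelled libraries edgeR called none, DESeq2 called 0 as well, and 2 members (Bbc3 and Ccng1) had an unadjusted p under 0.05. The background was 0.223% (0.156% higher, 0.0669% lower). KO- against Het-labelled libraries gave 1 of 9 (Mdm4, lower), against 9.43% of all genes (4.33% higher, 5.1% lower). KO- against SmoM2-labelled libraries gave 4 (Bax and Phlda3 higher, Cdkn1a and Bbc3 lower), against 32.5% (16.5% higher, 16% lower). Het- against SmoM2-labelled libraries also gave 4 (Bax and Phlda3 higher, Cdkn1a and Mdm2 lower), against 33.7% (16.9% higher, 16.7% lower). The test over all 4 groups called 5 of 9, against 41% of all genes. Groups without overlap were common among all genes too. In KO- against WT-labelled libraries 5 of 9 members had no overlap, against 62.0% of all tested genes. The counts and shares were 6 and 66.9% (Het- against WT-labelled), 3 and 35.8% (SmoM2- against WT-labelled) and 6 and 56.9% (KO- against Het-labelled). Against SmoM2-labelled libraries they were 7 and 67.1% (KO-labelled) and 8 and 70.9% (Het-labelled). The median log2 change of the members was -0.13 in KO-, 0.09 in Het- and -0.04 in SmoM2- against WT-labelled libraries, beside 0.03, -0.02 and 0.00 over all tested genes. These comparisons share the WT-labelled or SmoM2-labelled libraries, so their calls are not independent of each other.

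**Figure D2:**
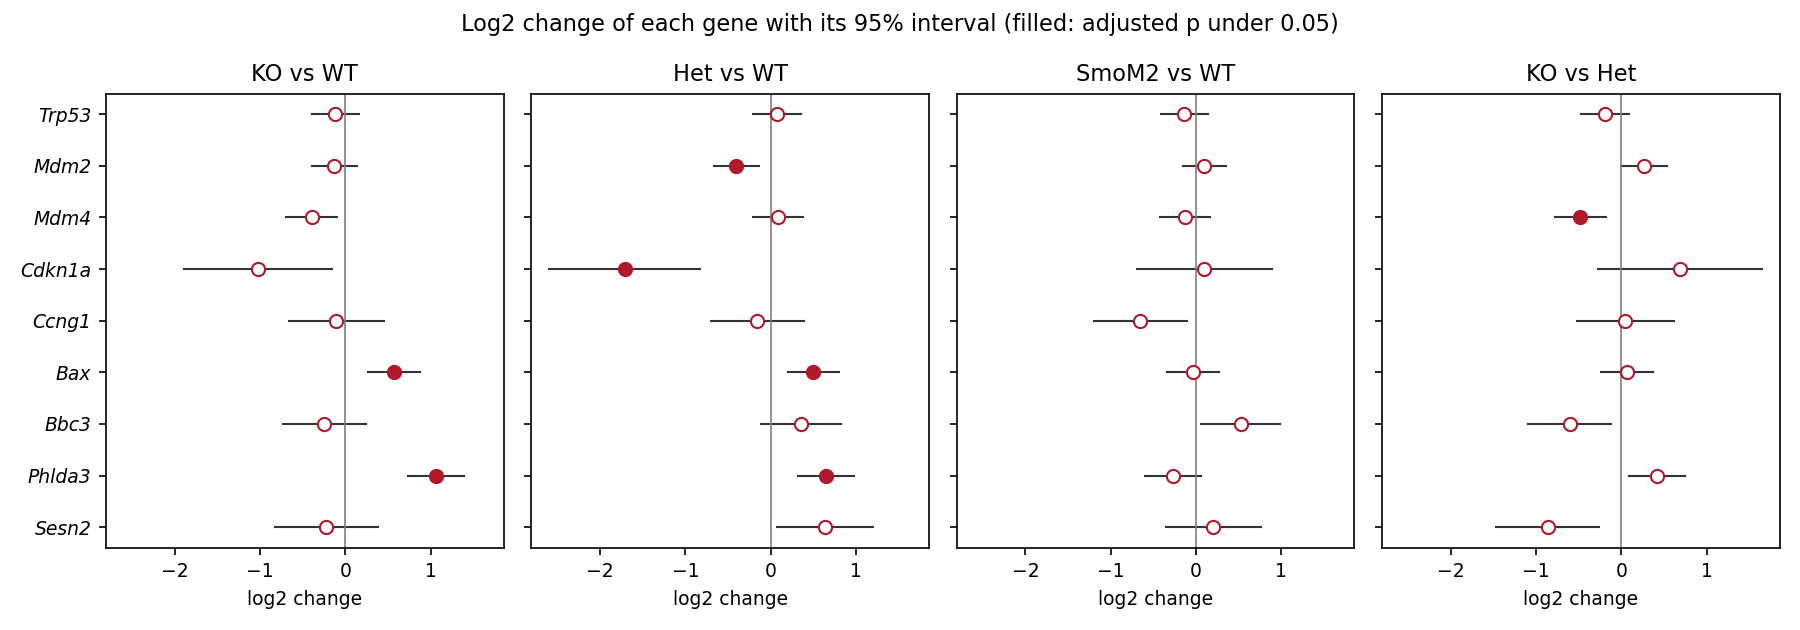
Log2 change of the 9 genes (horizontal axes) with unadjusted 95% intervals in 4 comparisons; filled points have an edgeR adjusted p under 0.05. In the Het- against WT-labelled panel Bax and Phlda3 lie to the right of 0 at 0.50 and 0.65, and Mdm2 and Cdkn1a to the left at -0.40 and -1.71.

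Base composition and length moved with several of these values. Bbc3, Bax and Phlda3 had a GC content of 65.2%, 63.5% and 62.6%, above that of 99.6%, 99.2% and 98.6% of the tested genes. Bax was also short, at 869 bases against a median of 3016, and shorter than all but 4.5% of the tested genes. Removing each library's trend over GC content and length lowered the KO- against WT-labelled value of Bax from 0.57 to 0.07, that of Phlda3 from 1.06 to 0.68 and that of Bbc3 from -0.24 to -0.61. Cdkn1a, at 54.4% GC and 2036 bases, moved from -1.03 to -1.19 there, and from -1.71 to -1.89 (edgeR adjusted p 0.0119) in Het- against WT-labelled libraries. In Het- against SmoM2-labelled libraries the correction ended the call of Bax (log2 0.11) and made 3 others, Bbc3 lower (from -0.17 to -0.66, edgeR adjusted p 0.0153) and Ccng1 (from 0.50 to 0.75, adjusted p 0.0343) and Mdm4 (from 0.21 to 0.59, adjusted p 0.0120) higher. SmoM2- against WT-labelled values moved little, by less than 0.1 for each gene. The Phlda3 rise in KO-labelled libraries and the low Cdkn1a level in Het-labelled libraries are thus the calls against WT-labelled libraries that were also made with these trends removed.

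**Figure D3:**
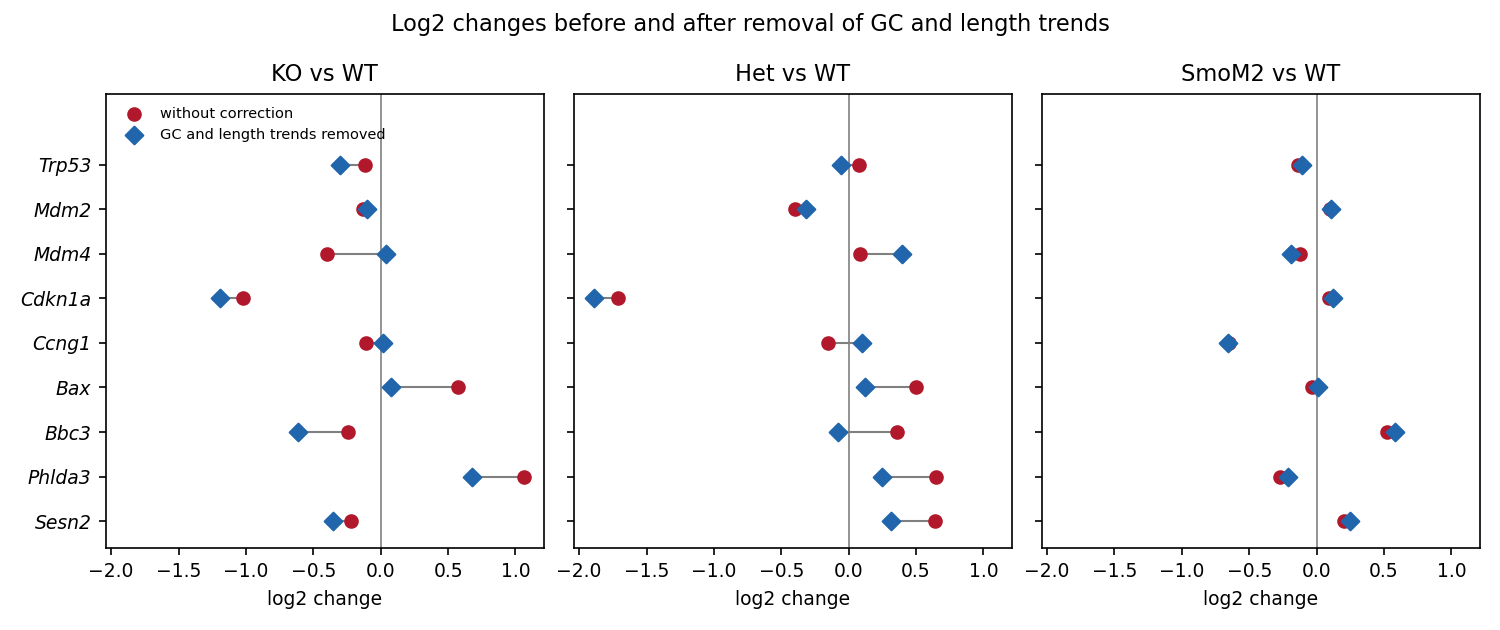
Log2 changes of the 9 genes against the WT-labelled libraries, as fitted (red circles) and with each library's GC and length trends removed (blue diamonds). Bax moves close to 0 in the KO- and Het-labelled panels, Phlda3 in the KO-labelled panel moves from 1.06 to 0.68, and Cdkn1a lies below -1 in both fits.

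Ratios of 2 transcripts within a library do not depend on how libraries are scaled. They were not corrected for each library's trends over GC content and length, and Trp53, Mdm2 and Mdm4 differ in length (1868, 3099 and 7354 bases). Per length, the RPKM ratio of Mdm2 to Trp53 was 0.282 and 0.243 (KO-labelled), 0.175 and 0.208 (Het-labelled), 0.261 and 0.268 (WT-labelled) and 0.285 and 0.341 (SmoM2-labelled). Both Het-labelled libraries were thus below the 6 others. The ratio of Mdm4 to Mdm2 was 0.487 and 0.430 (KO-labelled), 0.744 and 0.801 (Het-labelled), 0.557 and 0.546 (WT-labelled) and 0.519 and 0.426 (SmoM2-labelled). Here the Het-labelled pair was above the others, and Mdm2 was the more abundant transcript of the pair in every library. No test was made on these ratios.

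**Figure D4:**
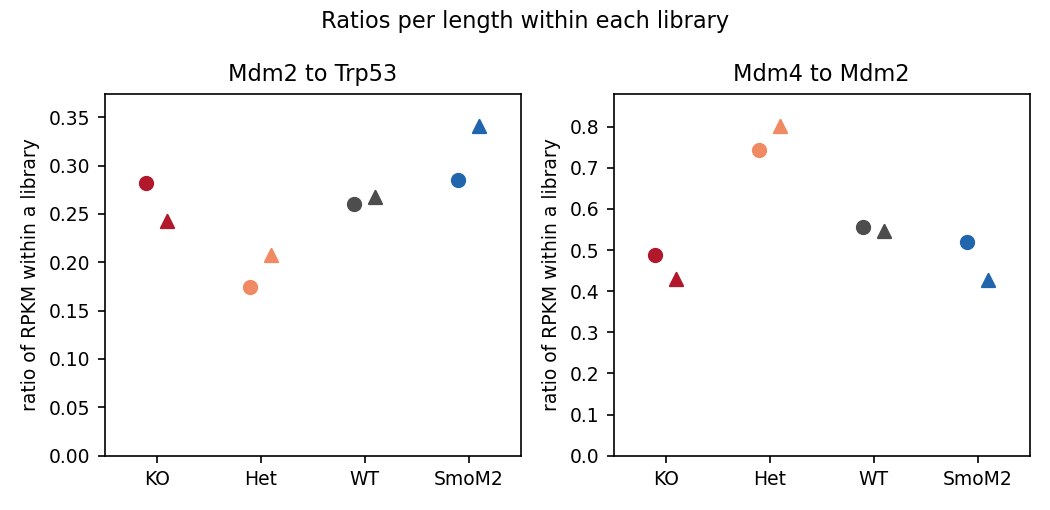
RPKM ratios of Mdm2 to Trp53 (left) and Mdm4 to Mdm2 (right) in each library, with replicate 1 as a circle and replicate 2 as a triangle. The Het-labelled libraries have the lowest Mdm2 to Trp53 ratios, 0.175 and 0.208, and the highest Mdm4 to Mdm2 ratios, 0.744 and 0.801.

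Other known p53 targets moved in both directions. Of a list of 33, 29 were tested, and Fas, Perp, Pmaip1 and Dram1, all genes of p53-driven death or autophagy, were not, with at most 1.55 CPM in any library. In KO- against WT-labelled libraries 1 was called higher and 3 lower, beside 11.6% and 11.4% of all genes. The median log2 change over the list was 0.03. The riser was Btg2, an antiproliferative gene that is also an immediate early gene, at 156 and 248 CPM in KO-labelled against 68.2 and 52.5 CPM in WT-labelled libraries (log2 1.74 with an SE of 0.22, edgeR adjusted p 0.000504). Lower were Trp53inp1, a stress protein that promotes p53 activity, at 29.3 ± 2.06 against 60.1 ± 12.4 CPM (SD, n = 2; log2 -1.03, SE 0.18, edgeR adjusted p 0.00314), Ephx1, an epoxide hydrolase (log2 -1.29, adjusted p 0.0339), and Apaf1, the core of the apoptosome (log2 -0.47, adjusted p 0.0417). Apaf1 was not called by DESeq2 (adjusted p 0.0618), with only the 2 groups compared fitted or with GC and length trends removed. Neither Apaf1 nor Ephx1 was called when any 1 of the 4 libraries compared was left out.

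In Het- against WT-labelled libraries 4 of the 29 were called higher and 5 lower, beside 13.1% and 12.2% of all genes, with a median of 0.06. Btg2 was again the largest rise, to 290 ± 25.9 CPM (log2 2.26, SE 0.22, edgeR adjusted p 0.000108). Sfn, a 14-3-3 protein at low level, and Tnfrsf10b, a death receptor, rose by 1.83 and 0.84 (edgeR adjusted p 0.0348 and 0.0194). Sfn was not called by DESeq2 (adjusted p 0.103), with sex as a covariate, with GC and length trends removed or in 5 of the 8 fits without 1 library (1.16 without Het-labelled replicate 2), nor Tnfrsf10b without Het-labelled replicate 1 (log2 0.61), WT-labelled replicate 1 or WT-labelled replicate 2. Sesn1, the paralogue of Sesn2, lay at 23.5 and 28.7 CPM against 57.3 and 48.7 CPM in WT-labelled libraries, a called fall (log2 -1.03 with an SE of 0.17, edgeR adjusted p 0.00176). Sesn1 and Sesn2 thus lay on opposite sides of the WT-labelled level in Het-labelled libraries, although Sesn2 itself was not called. The other 5 called genes, named after their values were seen, were Plk2, a stress-induced kinase, which rose, and Trp53inp1, Apaf1, Xpc, a DNA damage sensor, and Rchy1, which fell.

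KO- against Het-labelled libraries gave 2 called targets, both higher: Rchy1, another ubiquitin ligase for p53 (log2 0.71, SE 0.14, edgeR adjusted p 0.0140) and Sesn1 (log2 0.62, SE 0.18, edgeR adjusted p 0.0491). Of all genes 4.33% were called higher and 5.1% lower in that comparison. Sesn1 was not called there with DESeq2 (adjusted p 0.0527), with sex as a covariate (log2 0.37) or with GC and length trends removed. Its call was also lost in 6 of the 8 fits that left out 1 library, with values between 0.47 and 0.74 over the 8. The Rchy1 call was lost with sex as a covariate too (log2 0.64, adjusted p 0.0552), which here differs fully between the groups, and without KO-labelled replicate 2, Het-labelled replicate 1 or Het-labelled replicate 2. SmoM2- against WT-labelled libraries, where 0.223% of all genes were called, gave Ptprv alone, a receptor phosphatase gene that p53 induces in the mouse. It lay at 1.94 and 1.501 CPM in the SmoM2-labelled and 11.5 and 6.96 CPM in the WT-labelled libraries, with 7.08 to 13.9 CPM in the KO- and Het-labelled libraries, so that the SmoM2-labelled pair was below the 6 others (log2 -2.42, SE 0.41, edgeR adjusted p 0.0427). The call was lost in 5 of the 8 fits that left out 1 library, among them both without a KO-labelled library (adjusted p 0.0884 and 0.0903), with the change between -2.71 and -1.998 over the 8 fits. Over all 4 groups 12 of the 29 were called, beside 41% of all genes.

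**Figure D5:**
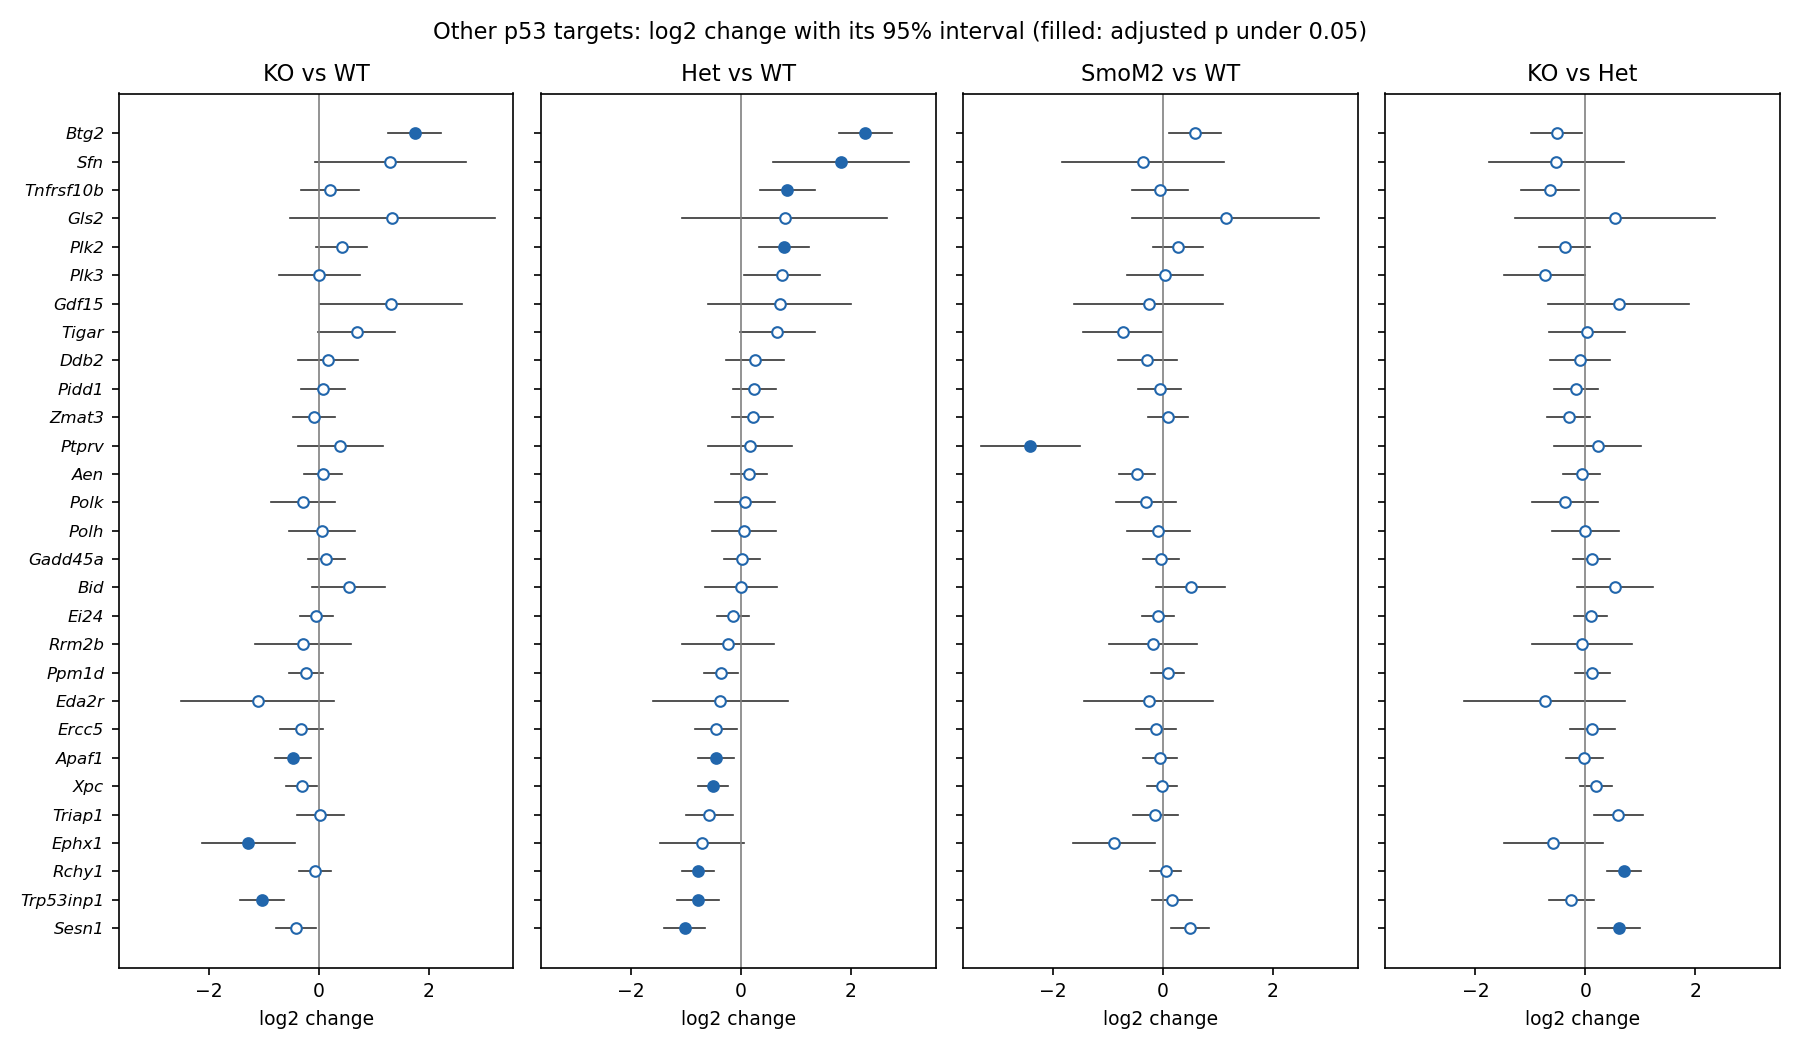
Log2 change with unadjusted 95% intervals for the 29 tested targets outside the 9, ordered by the Het- against WT-labelled change; filled points have an edgeR adjusted p under 0.05. Btg2 is at the top with 1.74 and 2.26, Sesn1 is at the bottom with -1.03, and Ptprv is the filled point in the SmoM2- against WT-labelled panel.

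The upstream regulators of p53 called against WT-labelled libraries, 2 of 13 in KO- and 3 of 13 in Het-labelled libraries, were all lower. Over all tested genes 23% and 25.3% were called there (11.4% and 12.2% lower), and 9.43% in KO- against Het-labelled libraries. Of 14 listed, 13 were tested, and the remaining one, Cdkn2a, whose Arf product blocks Mdm2, had at most 0.66 CPM in any library. In Het- against WT-labelled libraries 3 were called, all lower. Rpl5 and Rpl11, ribosomal proteins that can bind and block Mdm2, were among them. Rpl5 lay at 472 ± 3.31 CPM against 778 ± 31.7 CPM (edgeR adjusted p 0.00270, log2 -0.72) and Rpl11 at 618 ± 29.5 CPM against 889 ± 69.8 CPM (edgeR adjusted p 0.0134, log2 -0.52). Usp7, which removes ubiquitin from Mdm2 and p53, fell by 0.51 on the log2 scale (edgeR adjusted p 0.00895), and was not called with GC and length trends removed. Without either Het-labelled library the calls of Rpl11 and Usp7 were lost, and that of Rpl11 also without WT-labelled replicate 2. In KO- against WT-labelled libraries Hipk2, a kinase of p53, and Ep300, its acetyltransferase, were called lower (log2 -0.68 and -0.57, edgeR adjusted p 0.0125 and 0.0233). Ep300 was not called with the GC and length trends removed (log2 -0.22) or without KO-labelled replicate 1 (log2 -0.35) or either WT-labelled library, nor Hipk2 without KO-labelled replicate 1 or WT-labelled replicate 2. KO- against Het-labelled libraries gave 4 calls, Rpl5 and Rpl11 higher (log2 0.82 and 0.52) and Hipk2 and Ep300 lower (log2 -0.87 and -0.63). With GC and length trends removed Rpl11 was at 0.16 (edgeR adjusted p 0.398) and Ep300 at -0.35 (adjusted p 0.177), neither called. Without Het-labelled replicate 1 none of the 4 was called, and without KO-labelled replicate 1 Rpl5 alone was, with Rpl11 also lost without KO- or Het-labelled replicate 2 and Ep300 without Het-labelled replicate 2 (log2 -0.69) or with sex as a covariate (log2 -0.73). None was called in SmoM2- against WT-labelled libraries by edgeR, with 1 at an unadjusted p under 0.05.

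The BCL2 family, in which Bax and Bbc3 act, had 1 of 12 tested genes called in KO- and 2 of 12 in Het- against WT-labelled libraries, where 23% and 25.3% of all genes were called. In Het- against SmoM2-labelled libraries 7 of 12 were called, 2 higher and 5 lower, against 33.7% of all genes. Bok, a relative of Bax, was at 20.4 and 16.3 CPM (KO-labelled), 4.94 and 6.79 CPM (Het-labelled), 23.0 and 21.3 CPM (WT-labelled) and 22.2 and 26.1 CPM (SmoM2-labelled). The Het-labelled pair was below the 6 others, and the fall against WT-labelled libraries was called (log2 -1.93 with an SE of 0.23, edgeR adjusted p 0.000347), as was the rise in KO- against Het-labelled libraries (log2 1.66, SE 0.24, edgeR adjusted p 0.00661), which was lost without Het-labelled replicate 1. Bcl2, which holds Bax in check, rose in Het- against WT-labelled libraries, with 276 ± 12.8 CPM against 190 ± 15.3 CPM (edgeR adjusted p 0.00858, log2 0.53; not called without Het- or WT-labelled replicate 2). Bcl2l2, another inhibitor of Bax, was called lower in KO- against WT-labelled libraries (log2 -0.40, edgeR adjusted p 0.0470). It was not called by DESeq2 (adjusted p 0.0723), with sex as a covariate or in 6 of the 8 fits that left out 1 library. Per length, Bax exceeded Bcl2 in every library, with RPKM ratios between 3.87 and 6.01. The KO-labelled ratios, 5.64 and 4.99, lay within the SmoM2-labelled range of 4.74 to 6.01, and the Het-labelled ratios, 4.23 and 4.12, within the WT-labelled range of 3.87 to 4.73. The ratio of Bax to Mcl1, a further inhibitor of Bax, divided the libraries otherwise, with 3.46 and 2.32 (KO-labelled), 2.20 and 2.70 (Het-labelled), 2.09 and 1.78 (WT-labelled) and 1.87 and 1.90 (SmoM2-labelled). All 4 KO- and Het-labelled ratios to Mcl1 were above the other 4, and none of these ratios was tested. Nor were they corrected for GC and length trends. Bax has 63.5% GC and 869 bases, and Mcl1 48.7% and 3487 bases. With these trends removed Bax itself differed from WT-labelled libraries by 0.07 (KO-labelled) and 0.12 (Het-labelled), neither called.

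Stress genes differed between the groups beside the p53 genes. Of 8 genes of the ATF4 response, which can also raise Sesn2 and Bbc3, 2 were called higher in KO- and 3 in Het- against WT-labelled libraries. Among all genes 11.6% and 13.1% were called higher there. Ddit4, an inhibitor of mTORC1, lay at 42.2 ± 1.23 CPM in WT-labelled libraries and rose to 85.7 ± 17.5 CPM in KO-labelled (edgeR adjusted p 0.00161, log2 1.02) and 84.9 ± 11.5 CPM in Het-labelled libraries (edgeR adjusted p 0.00141, log2 1.01). Ddit3 rose by 0.86 and 0.95 (adjusted p 0.0355 and 0.0189), and Ppp1r15a by 0.94 in Het-labelled libraries (adjusted p 0.0102). The KO-labelled Ddit3 call was lost with GC and length trends removed (log2 0.61) and without KO-labelled replicate 1 (log2 0.52) or either WT-labelled library, and the Het-labelled one without Het-labelled replicate 2 (log2 0.63) or either WT-labelled library. Ppp1r15a was not called without either Het-labelled library or WT-labelled replicate 1. The summed level of 13 genes that respond to cell dissociation, such as Fos and Jun, was 5852 and 7529 CPM (KO-labelled), 9975 and 10062 CPM (Het-labelled), 3890 and 4198 CPM (WT-labelled) and 4321 and 6299 CPM (SmoM2-labelled). Of these 13, 7 were called higher in KO- and 9 in Het- against WT-labelled libraries, beside 11.6% and 13.1% of all genes, and none lower. With this level as a covariate the rise of Phlda3 was the call that remained in KO- against WT-labelled libraries, and no member was called in Het- against WT-labelled libraries. Of all 13459 tested genes, 362 and 22 were then called in these comparisons, where 3100 and 3402 were called without the covariate. The fitted Het- against WT-labelled changes were then -3.76 for Cdkn1a (edgeR adjusted p 0.129) and 1.36 for Phlda3 (adjusted p 0.157), larger in size than without the covariate. Whether dissociation had a part in the p53 results beyond this fit was not tested. Btg2, itself among the genes that dissociation can raise, was then at 1.02 in Het- against WT-labelled libraries and not called (edgeR adjusted p 0.355). Markers of early nephron structures, the cells that progenitors form next, also differed, with a summed level of 9 genes of 1416 and 1750 CPM in the KO-labelled and 507 to 825 CPM in the other 6 libraries. Their part in the KO-labelled values of Phlda3, Bax and Mdm4 was not tested. The summed level of 10 cell cycle genes was 1208 and 1682 CPM (KO-labelled), 1389 and 1367 CPM (Het-labelled), 1046 and 1330 CPM (WT-labelled) and 1162 and 1227 CPM (SmoM2-labelled). The KO- and WT-labelled sums overlapped. Of these 10 genes, 3 were called higher in KO- and 2 in Het- against WT-labelled libraries, where 11.6% and 13.1% of all genes were called higher.

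The genes whose log2 CPM followed a member most closely over the 8 libraries were sought among 10223 other tested genes. The nearest to Mdm2 were Rtcb, an RNA ligase, Rpl6, a ribosomal protein, and Npm1, a nucleolar chaperone, with Pearson's r of 0.992, 0.988 and 0.987. Each was lower in both Het-labelled libraries than in the 6 others, for example Npm1 at 453 and 424 CPM against 622 to 867 CPM. They were chosen for following Mdm2, so this low level is part of the choice and not a further result. The nearest to Cdkn1a were Galnt1, Dhx32 and Ttl, with r of 0.975, 0.964 and 0.962, and the nearest to Trp53 were Zmym3, Lclat1 and Ipo8, with r of 0.913, 0.910 and 0.902. These values describe the highest of many correlations over libraries that share groups, so no p-value is given.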

How the data were processed

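RNA of sorted cells was poly(A)-selected and sequenced in 8 libraries, per the labels' protocols. The authors deposited raw read counts per gene, RPKM values and gene lengths in 1 table. The submitters' processing notes name STAR, Subread, featureCounts and mm10, with no versions; annotation and strand setting are not given in the sources used here. Dividing counts by length and RPKM returned 1 total per library, of which the listed counts made up 81.1% to 83.3%. The test on counts was that of edgeR 4.0.16, run in R 4.3.3 (filterByExpr, trimmed mean of M values, quasi-likelihood fit with a mean per group over all 8 libraries, 4 residual degrees of freedom, Benjamini-Hochberg adjustment over 13459 genes, two-sided). The script was tested on simulated data. With 2 libraries against 2 an exact permutation test cannot go below 0.333, so none was made. Each SE and 95% interval was derived from the quasi-likelihood F statistic, without adjustment. The intervals, like the tests, used the residual degrees of freedom plus those that the fit borrows from the spread of all genes. GC content came from the longest GENCODE M21 transcript (99.2% of tested genes), and its trend with length was fitted by splines in each library. Positions are GRCm38, the assembly that mm10 names, from GENCODE and RefSeq. All members are named. Of the other p53 targets, upstream regulators, BCL2 family and ATF4 genes, up to 4 per list and comparison are named, those with the largest called log2 change; the remaining called targets in Het- against WT-labelled libraries were added after their values were seen. The 3 genes most like Trp53, Mdm2 and Cdkn1a needed an average log2 CPM of at least 3 (prior count 2). Rfwd2 was matched for Cop1. Lists of progenitor, early nephron, stromal, collecting duct, endothelial, erythroid and immune markers, stress and cell cycle genes served as checks. Members, lists and rules were chosen with earlier results of these data known. Alternatives were DESeq2 1.42.0, other scalings and filters, covariates, GC and length correction, and fits without single libraries.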

Additional observations from a re-analysis of the deposited data

How the results depend on the processing

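Of the members' log2 changes in the 6 comparisons, 524 values under alternatives other than leaving out 1 library stayed on their side of the threshold, 22 lost a call and 21 gained one; no called value turned in sign. With the dissociation level as a covariate, 1 member was called in KO- and 0 in Het- against WT-labelled libraries, 0 in KO- against Het-labelled, 2 in Het- against SmoM2-labelled and 3 over all groups; of the other targets 0, 0, 0 (SmoM2- against WT-labelled), 0 (KO- against Het-labelled) and 3 were called, and Ppp1r15a turned to -0.30 in Het- against WT-labelled libraries. This level is itself high in the Het-labelled libraries. As a covariate it left 362 of all tested genes called in KO- and 22 in Het- against WT-labelled libraries. With GC and length trends removed, 1 member was called in Het- against WT-labelled and 0 in KO- against Het-labelled libraries, and 0 and 1 other targets in SmoM2- against WT-labelled and KO- against Het-labelled libraries. With sex as a covariate, 0 members were called in KO- against Het-labelled and 2 in KO- against SmoM2-labelled libraries, and 0 other targets in KO- against Het-labelled libraries. With no low-count filter, members called were 4 in KO- against WT-labelled, 1 in SmoM2- against WT-labelled, 4 in KO- against Het-labelled and 8 over all groups, and other targets 8 in KO- against WT-labelled and 2 in SmoM2- against WT-labelled libraries. DESeq2 called 4 members in KO- against WT-labelled and 3 in KO- against Het-labelled libraries. DESeq2 size factors and a minimum of 10 counts per library each gave 3 and 1 members there. In KO- against Het-labelled libraries each of these 3 settings called 1 other target. RPKM-implied totals left 0 members in KO- against Het-labelled libraries. Fitting only the 2 groups compared left 0 members and 1 other target in KO- against Het-labelled, and 0 other targets in SmoM2- against WT-labelled libraries. Calls over all tested genes moved too. There were 1269 for KO- against Het-labelled libraries, 299 with GC and length trends removed and 2217 with no low-count filter. DESeq2 gave 1444 there, RPKM-implied totals 1449, a fit of only these 2 groups 1374 and sex as a covariate 1117. For SmoM2- against WT-labelled libraries there were 30, and 356 with no low-count filter. The cause of these moves was not tested. Without both Het-labelled libraries, an alternative chosen after seeing the data, no member call changed.

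Replicate numbers share no stated source, and deviations of equal numbers correlated between -0.06 and 0.39 across group pairs. With the replicate number as a block, 2 members were called in KO- against Het-labelled libraries, Sesn2 (log2 -0.90, edgeR adjusted p 0.0384) beside Mdm4, and Sesn2 was called in Het- against WT-labelled libraries (log2 0.67, edgeR adjusted p 0.0495).

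Leaving out 1 library at a time gave 1 to 4 members called in KO- against WT-labelled, 0 to 4 in Het- against WT-labelled, 0 to 1 in KO- against Het-labelled, 2 to 4 in KO- against SmoM2-labelled, 1 to 4 in Het- against SmoM2-labelled and 3 to 5 over all groups. No member was called in SmoM2- against WT-labelled libraries in any of these fits. The KO- against WT-labelled count was 1 without KO-labelled or WT-labelled replicate 1 and 4 without either SmoM2-labelled library. The Het- against WT-labelled count was 0 without Het-labelled replicate 1, 2 without WT-labelled replicate 1, and 1 without Het-labelled or WT-labelled replicate 2. Other targets called ranged from 2 to 5 in KO- against WT-labelled, 4 to 9 in Het- against WT-labelled, 0 to 1 in SmoM2- against WT-labelled, 0 to 2 in KO- against Het-labelled and 7 to 13 over all groups. A lone library was assumed to vary like the other groups. Depth limits Cdkn1a and Sesn2 most, with as few as 54 and 42 counts in a library.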
